A study of Mus musculus with 9 samples.

Results

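The Hox genes encode homeodomain transcription factors and lie in 4 clusters in the mouse genome. They were read here in bone marrow stroma marked by an interleukin-7 reporter. Members were the rows of the deposited array table whose only gene symbol was a Hoxa, Hoxb, Hoxc or Hoxd symbol followed by a paralogue number. This gave 37 genes, 1 row each, among 21789 rows with a single symbol that stand for 19938 genes. Hoxb8 appeared only in a row shared with Hoxb7 and was not tested. The members were 10 genes of the Hoxa cluster on chromosome 6, 9 of Hoxb on chromosome 11, 9 of Hoxc on chromosome 15 and 9 of Hoxd on chromosome 2.

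All 9 arrays (Affymetrix Mouse Gene ST 1.0) came from bone marrow of young adult mice on a C57Bl/6J background. Stromal cells were sorted on the CD45-Lin-CD54+BP1+ gate, which leaves out cells with leucocyte or lineage antigens and keeps cells positive for the adhesion molecule CD54 and the surface peptidase BP1. The YFP-positive group (3 arrays) held cells of this gate that carried yellow fluorescent protein, from mice labelled IL7-Cre Transgenic/Rosa-eYFP hetero. In such mice Cre recombinase switches on the Rosa26 reporter for good, so a cell is marked where the Il7 transgene is or once was active. The wild-type group (3 arrays) held cells of the same gate from wild-type mice, which carry no reporter. The YFP-negative group was 1 array of gated cells without YFP from reporter mice. Total marrow (2 arrays) was unsorted marrow of wild-type mice. Donors of sorted cells were 6 to 12 weeks old. Each sorted replicate was prepared from 1800 to 10000 cells (2300 for YFP-negative cells) and each total marrow replicate from 10 ng of RNA, so input and group cannot be told apart. The labels do not say whether replicates came from separate animals, so p-values measure the spread between these arrays, which may be technical.

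Hox genes are read in overlapping domains along the embryonic body axis, and within a cluster the order of the genes on the chromosome follows the order of those domains from head to tail. Low-numbered paralogues act in the hindbrain and neck, middle ones in the trunk, and high-numbered ones in the lumbar, sacral and distal limb regions. Adult mesenchymal cells are known to keep a Hox pattern that reflects where they came from in the body, and in the blood lineage Hoxa9 and its neighbours are known for their role in stem and progenitor cells. Hox proteins bind DNA together with partners of the PBX, MEIS and PREP families (the last encoded by Pknox1 and Pknox2), and the clusters are held silent by Polycomb proteins and kept active by Trithorax proteins.

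Windows at the starts of 4 Hoxa genes are shown because these genes were higher in both sorted groups whichever array was left out, except Hoxa6 in wild type. RefSeq (GRCm38.p6) windows ran from 250 bases before the annotated start to 50 after it. Hoxa3 lies at chr6:52213018-52213317, Hoxa6 at chr6:52208623-52208922 and Hoxa9 at chr6:52227321-52227620, and Hoxa10 has a window for each of 2 annotated starts. All are on the minus strand and are written 5′ to 3′ in the direction of the gene. The Hoxa3 window is at the listed start of a span that overlaps those of Hoxa4, Hoxa5 and Hoxa6. It lies upstream of the Hoxa6 window. Capitals mark a match on either strand to TGATTNAT (a site for PBX and HOX proteins together), TGACAG (a MEIS and PREP site), TATAAA (the TATA box) or CCAAT (the CCAAT box).
Hoxa3: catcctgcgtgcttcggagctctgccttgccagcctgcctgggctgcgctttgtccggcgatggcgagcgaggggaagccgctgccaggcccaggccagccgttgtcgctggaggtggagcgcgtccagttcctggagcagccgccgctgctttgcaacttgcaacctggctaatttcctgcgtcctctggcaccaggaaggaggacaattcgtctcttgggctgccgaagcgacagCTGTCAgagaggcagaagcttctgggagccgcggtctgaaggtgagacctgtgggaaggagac
Hoxa6: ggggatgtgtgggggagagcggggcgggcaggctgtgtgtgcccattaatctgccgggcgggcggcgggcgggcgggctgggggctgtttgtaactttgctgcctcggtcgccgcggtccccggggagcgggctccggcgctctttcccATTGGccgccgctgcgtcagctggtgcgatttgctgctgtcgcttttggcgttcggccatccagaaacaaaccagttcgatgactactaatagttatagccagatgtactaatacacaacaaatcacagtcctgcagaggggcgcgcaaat
Hoxa9: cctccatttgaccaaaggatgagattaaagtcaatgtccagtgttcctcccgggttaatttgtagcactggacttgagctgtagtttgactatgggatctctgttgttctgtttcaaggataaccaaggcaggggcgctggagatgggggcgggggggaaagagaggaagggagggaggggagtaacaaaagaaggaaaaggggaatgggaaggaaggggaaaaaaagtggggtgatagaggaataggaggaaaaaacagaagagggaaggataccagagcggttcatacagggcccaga
Hoxa10, chr6:52240805-52241104: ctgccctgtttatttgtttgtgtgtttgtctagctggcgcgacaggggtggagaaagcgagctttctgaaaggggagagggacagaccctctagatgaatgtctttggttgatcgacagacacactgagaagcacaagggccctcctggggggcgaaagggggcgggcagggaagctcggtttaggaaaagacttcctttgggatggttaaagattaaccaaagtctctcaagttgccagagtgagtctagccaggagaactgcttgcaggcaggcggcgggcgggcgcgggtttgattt
Hoxa10, chr6:52234890-52235189: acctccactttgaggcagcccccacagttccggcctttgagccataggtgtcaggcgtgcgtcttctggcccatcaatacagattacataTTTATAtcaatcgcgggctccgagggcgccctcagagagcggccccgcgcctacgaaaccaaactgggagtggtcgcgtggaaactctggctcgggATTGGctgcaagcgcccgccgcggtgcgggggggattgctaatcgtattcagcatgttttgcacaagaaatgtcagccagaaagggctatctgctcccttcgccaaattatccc

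The Hoxa3 window held 1 TGACAG match, read as its reverse complement, and the Hoxa6 window 1 CCAAT match, also on the opposite strand. No match to the 4 motifs was found in the Hoxa9 window or in the first Hoxa10 window, while the second Hoxa10 window held 1 TATAAA and 1 CCAAT match. The windows differed in CG dinucleotides, with 20 in Hoxa3, 26 in Hoxa6, 4 in Hoxa9 and 12 and 21 in the Hoxa10 windows. Windows were listed for 21 Hox genes, 23 windows in all, and 19 of these held more CG than the median of 7 over all 32851 windows. CCAAT was present in 14 of the 23 Hox windows, against 37.4% of all windows. TATAAA was present in 3 (13.6% of all), TGACAG in 2 (19.2%) and TGATTNAT in 2 (3.22%). These matches describe letters in the sequence and were not tested for binding.

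Expression values are log2 signals, on which a difference of 1 is a doubling, and they are compared between arrays for 1 gene at a time because signals of different probe sets are not on a common level scale. A change was called at a Benjamini-Hochberg adjusted p below 0.05 over all 21789 rows in limma. The array medians lay between 4.51 and 4.60 in the YFP-positive, wild-type and total marrow arrays. Markers of reticular stroma were high in the gate. The mean log2 signal of 10 reticular stroma markers, among them Lepr, Cxcl12 and Ebf3, was 10.7 to 11.0 in the YFP-positive and 10.9 to 11.0 in the wild-type arrays, against 4.50 to 4.55 in total marrow. Markers of other cell types were read as well. The mean of 14 leucocyte markers was 4.07 to 5.61 in the YFP-positive arrays, 3.92 to 4.69 in the wild-type arrays and 11.1 in both total marrow arrays. For 11 haematopoietic progenitor markers it was 4.75 to 5.21, 4.32 to 4.50 and 7.07 to 7.18 in the same order. Of the leucocyte markers 12 of 14 were lower than in total marrow in YFP-positive cells and 13 in wild-type cells. Ptprc, which encodes CD45, averaged 3.75 and 3.65 in the sorted groups and 9.72 in total marrow. Of 8 endothelial markers, 4 were lower in each sorted group, and of 6 chondrogenic and osteogenic markers 4 were higher. Beside these counts, 18.5% of all rows were lower and 11% higher in YFP-positive cells, and 13.9% and 10.4% in wild-type cells. The part of these other cell types in the Hox values was not tested. Fewer cells of a type and less RNA per cell cannot be told apart in such bulk samples.

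Against total marrow, sorted stroma was higher for Hox genes of the Hoxa and Hoxc clusters and for no more than 2 genes of each other cluster, and no Hox gene was lower. In YFP-positive cells 16 of 37 Hox genes were called higher, where 11% of all rows tested were, and 0 were called lower, where 18.5% of all rows were. In wild-type gated cells 18 were higher, against 10.4% of all rows, and 0 lower, against 13.9%. By cluster, the called genes of the YFP-positive cells were 7 of 10 in Hoxa, 0 of 9 in Hoxb, 7 of 9 in Hoxc and 2 of 9 in Hoxd. In wild-type cells they were 8, 1, 7 and 2. The median change over the 37 genes was 0.56 in YFP-positive cells, beside 0.09 over all rows, and 0.59 in wild-type cells, beside 0.00 over all rows. Both comparisons used the same 2 total marrow arrays. The count in YFP-positive cells dropped to 10 without YFP-positive array 3, where 2391 of all 21789 rows were higher, against 2396 with all arrays. Fits without either total marrow array leave 1 array in that group. In them fewer Hox genes and fewer of all rows were called higher in both comparisons.

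**Figure D1:**
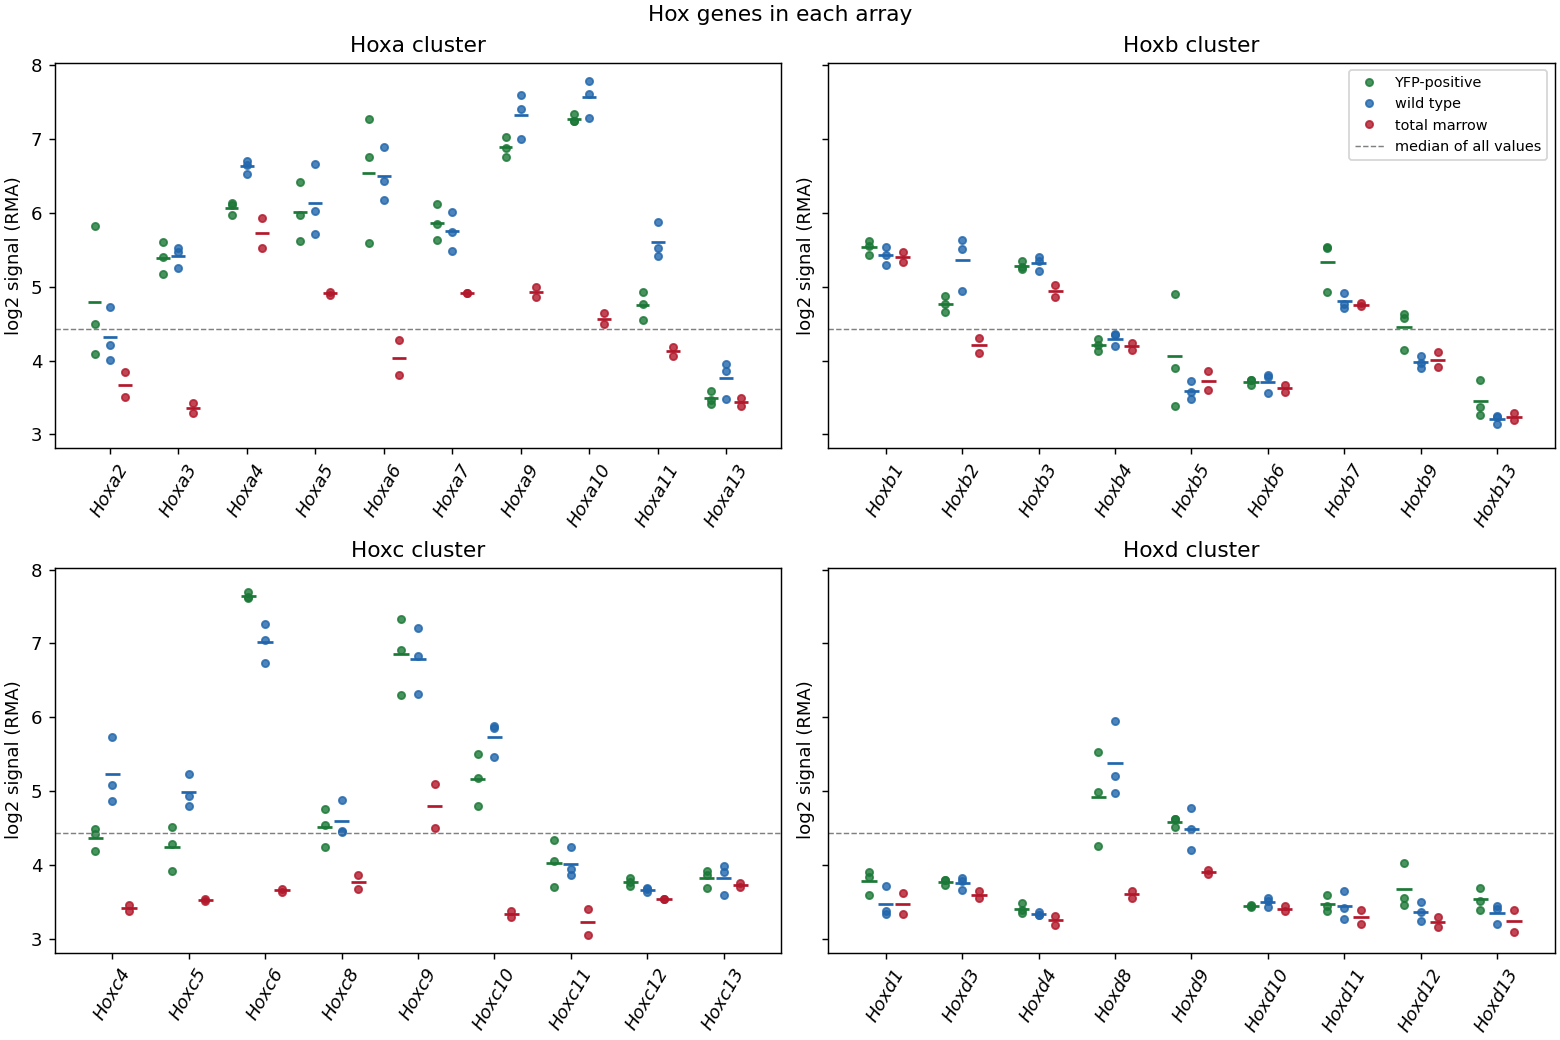
Log2 signal of the 37 Hox genes (vertical axis) in each array of the 3 replicated groups, with 1 panel per cluster and genes in order of paralogue number (horizontal axis). Points are arrays, short bars are group means and the dashed line is the median of all values, 4.43. Sorted cells stand above total marrow for most genes of the Hoxa and Hoxc clusters, while most Hoxb and Hoxd genes lie close together in all groups.

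In the Hoxa cluster every measured gene from Hoxa3 to Hoxa11 was called in wild-type cells, and all of these but Hoxa4 in YFP-positive cells. Hoxa3, needed for the thymus, the parathyroids and the throat cartilages, had log2 signals of 5.60, 5.41 and 5.17 in the YFP-positive arrays, 5.47, 5.52 and 5.25 in the wild-type arrays, and 3.42 and 3.29 in total marrow. All 6 sorted arrays stood above both total marrow arrays. The change was 2.04 ± 0.16 (SE, n = 3 and 2) in YFP-positive cells (limma adjusted p = 4.83e-05) and 2.06 ± 0.16 in wild-type cells (limma adjusted p = 4.32e-05). In RefSeq the Hoxa3 gene span overlaps those of Hoxa4, Hoxa5 and Hoxa6, so transcripts of these 4 genes may share sequence.

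Hoxa4, a neck-level paralogue, read 6.13, 5.97 and 6.10 in the YFP-positive arrays, 6.53, 6.71 and 6.65 in the wild-type arrays, and 5.52 and 5.93 in total marrow. The groups did not overlap, but the change was called only in wild-type cells, at 0.91 ± 0.15 (limma adjusted p = 0.00296). In YFP-positive cells the change was 0.35 ± 0.15 (limma adjusted p = 0.122). Hoxa5, which patterns the lower neck and the airways, read 6.42, 5.61 and 5.98 in the YFP-positive arrays, 6.03, 6.66 and 5.71 in the wild-type arrays, and 4.93 and 4.89 in total marrow. Its change was 1.09 ± 0.31 (limma adjusted p = 0.034) and 1.22 ± 0.31 (limma adjusted p = 0.0248), with sorted arrays all above total marrow.

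Hoxa6, a gene of the upper trunk, had signals of 6.75, 7.27 and 5.60 in the YFP-positive arrays and 6.89, 6.42 and 6.17 in the wild-type arrays, against 4.28 and 3.80 in total marrow. It was higher by 2.50 ± 0.46 (limma adjusted p = 0.00526) and by 2.46 ± 0.46 (limma adjusted p = 0.00615), and again no sorted array reached down to total marrow. Hoxa7, also a trunk gene, read 6.12, 5.63 and 5.85 in the YFP-positive arrays, 5.74, 6.01 and 5.49 in the wild-type arrays, and 4.91 in each total marrow array. The groups were apart by less than for Hoxa6, with changes of 0.96 ± 0.20 (limma adjusted p = 0.00836) and 0.84 ± 0.20 (limma adjusted p = 0.017).

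Hoxa9, a driver of blood stem and progenitor cell growth when overexpressed, was read in every group. Its log2 signals were 7.03, 6.75 and 6.87 in the YFP-positive arrays, 7.40, 7.59 and 7.00 in the wild-type arrays, and 4.85 and 5.00 in total marrow. The sorted arrays lay above total marrow with no overlap, and the highest YFP-positive array lay just above the lowest wild-type array. Stroma was higher by 1.96 ± 0.19 in YFP-positive cells (3.89-fold, limma adjusted p = 0.000152) and by 2.40 ± 0.19 in wild-type cells (5.29-fold, limma adjusted p = 4.36e-05). Of the 11 progenitor markers given above, 8 were lower in each sorted group and 0 were higher. Of all rows, 18.5% and 13.9% were lower and 11% and 10.4% higher. The part of progenitor cells in the Hoxa9 values was not tested. Hoxa10, which patterns the lumbar region and the uterus, had the largest change of the Hoxa genes. Its signals were 7.33, 7.24 and 7.24 in the YFP-positive arrays, 7.61, 7.79 and 7.28 in the wild-type arrays, and 4.49 and 4.64 in total marrow, so the groups were far apart. The changes were 2.70 ± 0.16 (6.52-fold, limma adjusted p = 9.92e-06) and 2.99 ± 0.16 (7.96-fold, limma adjusted p = 5.14e-06).

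Hoxa11, which is needed for the forearm and lower leg bones, read 4.55, 4.93 and 4.77 in the YFP-positive arrays, 5.41, 5.88 and 5.53 in the wild-type arrays, and 4.18 and 4.07 in total marrow. The 3 groups formed 3 steps with no overlap, the wild-type arrays being highest. Its change was 0.62 ± 0.18 (limma adjusted p = 0.0331) in YFP-positive and 1.48 ± 0.18 (limma adjusted p = 0.000538) in wild-type cells. The 2 genes at the ends of the measured cluster were not called in either group. Hoxa2, a gene of the hindbrain and second pharyngeal arch, changed by 1.12 ± 0.48 (limma adjusted p = 0.122) and 0.64 ± 0.48 (limma adjusted p = 0.457), and it had the largest spread of all 37 genes among YFP-positive arrays (SD 0.91, n = 3). Hoxa13, the digit and genital tubercle gene, changed by 0.06 ± 0.16 and 0.33 ± 0.16 (limma adjusted p = 0.807 and 0.211).

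Some of these Hoxa calls were lost with 1 array left out. A fit with fewer arrays estimates the spread less well, so a lost call need not reflect the values of that array. Hoxa7 read 4.91 in each total marrow array, and its change in YFP-positive cells ran from 0.83 to 1.10 under the alternatives. In YFP-positive cells Hoxa5 lost its call without YFP-positive array 1 or 3, without wild-type array 1 and without either total marrow array (adjusted p up to 0.149). Hoxa11 lost it without YFP-positive array 2 or 3, wild-type array 3 or either total marrow array (up to 0.169), and Hoxa7 without either total marrow array (up to 0.061). In wild-type cells Hoxa5 lost it without wild-type array 1 or either total marrow array (up to 0.127), Hoxa7 without either total marrow array (up to 0.101) and Hoxa6 without total marrow array 2 (0.0596).

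**Figure D2:**
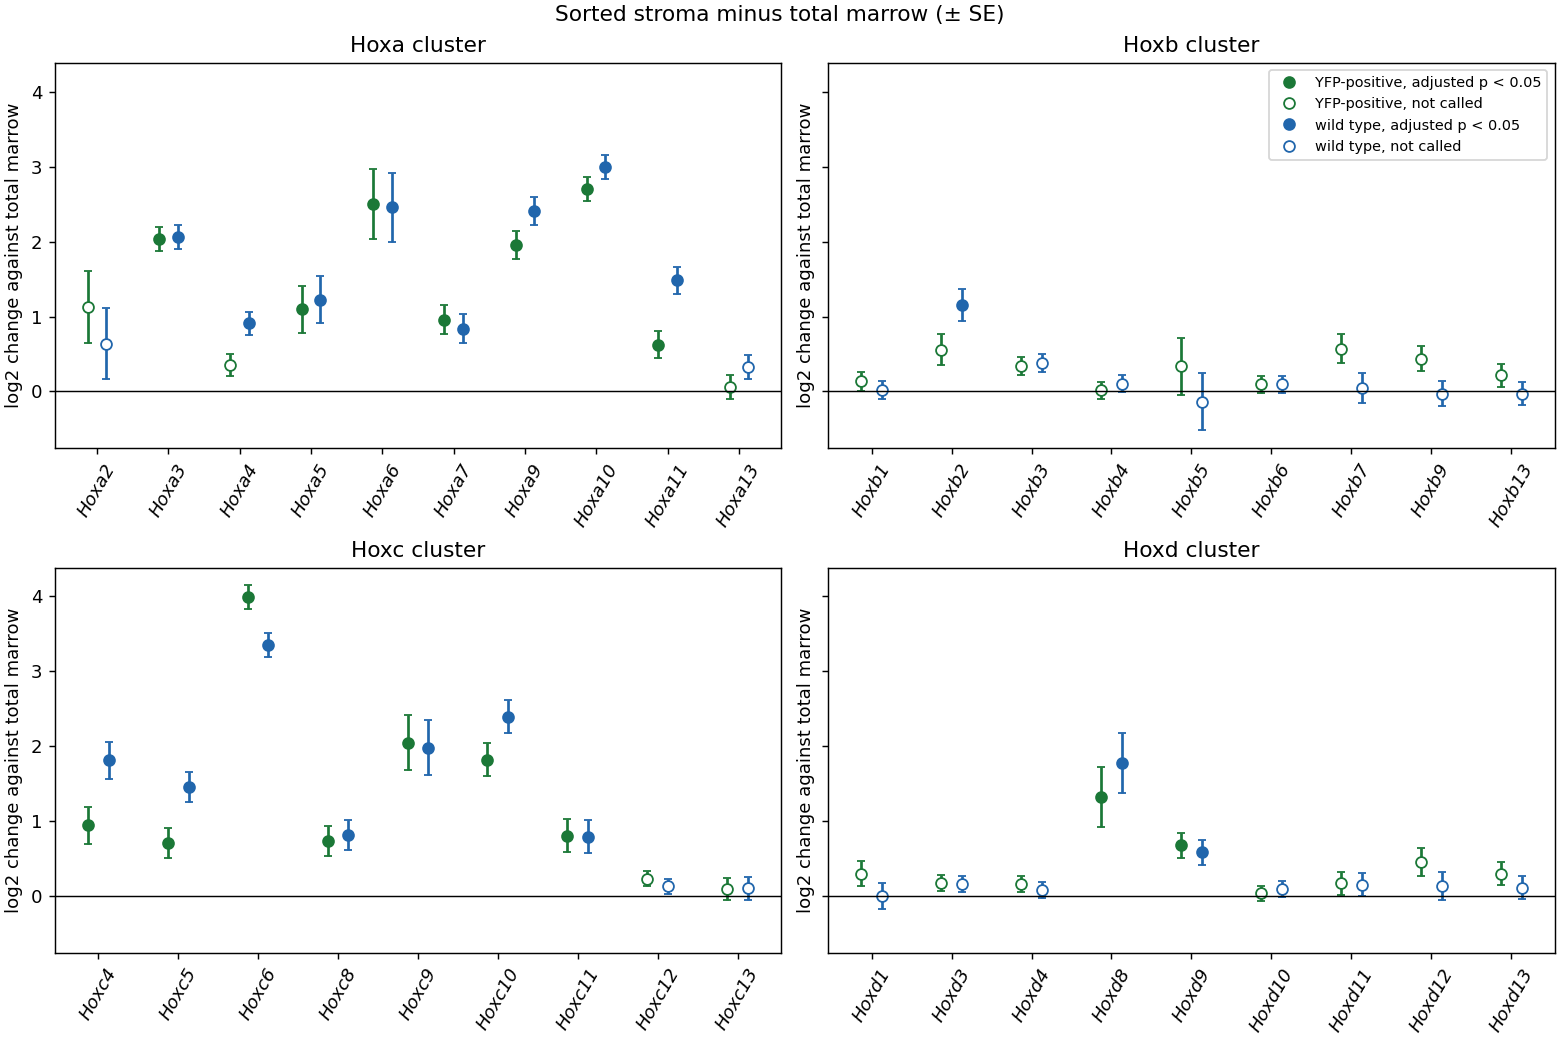
Log2 change against total marrow (vertical axis, ± SE) of the 37 Hox genes in the YFP-positive and the wild-type gated cells, 1 panel per cluster, genes in order of paralogue number (horizontal axis). Filled points have an adjusted p below 0.05 and open points do not. Filled points run through the middle of the Hoxa and Hoxc clusters, and the largest change is that of Hoxc6 at 3.99 in YFP-positive cells.

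In the Hoxc cluster the 7 genes from Hoxc4 to Hoxc11 were called in both sorted groups, and Hoxc12 and Hoxc13, its last 2 genes, in neither. Hoxc6, a gene of the thoracic level and the forelimb motor neurons, had the largest change of all 37 genes. Its log2 signals were 7.63, 7.61 and 7.70 in the YFP-positive arrays, 7.04, 6.74 and 7.26 in the wild-type arrays, and 3.68 and 3.64 in total marrow. No array of any group overlapped those of another, and YFP-positive arrays stood highest. The change was 3.99 ± 0.16 (15.9-fold, limma adjusted p = 1.17e-06) in YFP-positive and 3.36 ± 0.16 (10.2-fold, limma adjusted p = 2.79e-06) in wild-type cells. Total marrow lay below the median of all values here. It did so too for Hoxa3, Hoxa6, Hoxa11, Hoxb2, Hoxd8, Hoxd9 and the other called Hoxc genes except Hoxc9. The share of background in such signals is not known from these files, so the size of these changes is uncertain.

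Hoxc4 and Hoxc5, the neck-level genes at one end of the cluster, were higher in both groups and stood highest in wild-type cells. Hoxc4 read 4.49, 4.19 and 4.42 in the YFP-positive arrays, 5.09, 4.87 and 5.74 in the wild-type arrays, and 3.38 and 3.46 in total marrow. The change was 0.95 ± 0.25 (limma adjusted p = 0.0237) in YFP-positive and 1.81 ± 0.25 (limma adjusted p = 0.00109) in wild-type cells. Hoxc5 followed the same steps, with 4.29, 3.92 and 4.51, then 4.79, 4.93 and 5.23, then 3.55 and 3.51, and changes of 0.71 ± 0.20 (limma adjusted p = 0.0326) and 1.46 ± 0.20 (limma adjusted p = 0.00117). Hoxc8, which patterns the border of thorax and loins, read 4.75, 4.25 and 4.54 in the YFP-positive arrays, 4.46, 4.88 and 4.44 in the wild-type arrays, and 3.68 and 3.87 in total marrow. The sorted groups overlapped each other and not total marrow, with changes of 0.74 ± 0.20 (limma adjusted p = 0.0262) and 0.82 ± 0.20 (limma adjusted p = 0.0194).

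Hoxc9, a thoracic gene that sets the boundary to the forelimb motor column, read 7.33, 6.31 and 6.91 in the YFP-positive arrays, 6.84, 7.21 and 6.31 in the wild-type arrays, and 5.10 and 4.51 in total marrow. Arrays within each group varied, yet every sorted array lay above total marrow. The change was 2.05 ± 0.37 (limma adjusted p = 0.0044) and 1.98 ± 0.37 (limma adjusted p = 0.00549). Hoxc10, a gene of the lumbar and hindlimb level, read 5.50, 4.80 and 5.18 in the YFP-positive arrays, 5.46, 5.89 and 5.85 in the wild-type arrays, and 3.38 and 3.30 in total marrow. It was higher by 1.82 ± 0.22 (limma adjusted p = 0.000597) and by 2.39 ± 0.22 (limma adjusted p = 0.000126), with the sorted groups overlapping in part. Hoxc11, a gene of the sacral level and hindlimb, stayed below the median of all values in every array, at 4.34, 3.70 and 4.06 in the YFP-positive arrays, 4.25, 3.94 and 3.87 in the wild-type arrays, and 3.40 and 3.05 in total marrow. Its change was 0.80 ± 0.22 (limma adjusted p = 0.0286) and 0.79 ± 0.22 (limma adjusted p = 0.0346). For Hoxc12 the changes were 0.23 ± 0.10 and 0.13 ± 0.10, and for Hoxc13 they were 0.09 ± 0.15 and 0.10 ± 0.15, none called.

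The smaller Hoxc calls were also lost in fits with 1 array left out. In YFP-positive cells Hoxc4, Hoxc5, Hoxc8 and Hoxc11 each lost the call without YFP-positive array 1, YFP-positive array 3 or either total marrow array, and Hoxc5 also without wild-type array 2. Their adjusted p then reached 0.137 for Hoxc4, 0.145 for Hoxc5, 0.171 for Hoxc8 and 0.187 for Hoxc11. In wild-type cells Hoxc11 lost it without any 1 of the wild-type or total marrow arrays (up to 0.235), Hoxc8 without wild-type array 2 or either total marrow array (up to 0.147) and Hoxc9 without total marrow array 2 (0.0572). Under quantile normalization Hoxc5 and Hoxc11 were not called in YFP-positive cells (adjusted p = 0.051 and 0.0604), and after cyclic loess Hoxc4, Hoxc5 and Hoxc11 were not (0.0509, 0.0662 and 0.0618).

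The Hoxd cluster contributed the neighbours Hoxd8 and Hoxd9. Hoxd8, a trunk gene, read 4.99, 4.25 and 5.53 in the YFP-positive arrays, 5.95, 4.98 and 5.20 in the wild-type arrays, and 3.65 and 3.55 in total marrow. It had the largest SD of the 37 genes among wild-type arrays (0.51, n = 3), and the changes were 1.32 ± 0.40 (limma adjusted p = 0.0418) and 1.78 ± 0.40 (limma adjusted p = 0.014). Hoxd9, which acts with other group 9 genes in the upper limb bones, read 4.62, 4.51 and 4.62 in the YFP-positive arrays, 4.77, 4.49 and 4.21 in the wild-type arrays, and 3.93 and 3.88 in total marrow. The sorted arrays lay above total marrow by 0.68 ± 0.17 (limma adjusted p = 0.0189) and 0.59 ± 0.17 (limma adjusted p = 0.0394). In YFP-positive cells Hoxd8 lost its call without YFP-positive array 1 or 3, wild-type array 2 or 3, or either total marrow array (adjusted p up to 0.173), and also under quantile normalization, over all rows of the table, with the replicate block and with the arrays of the 2 groups alone. In the same cells Hoxd9 lost it without either total marrow array (up to 0.104). In wild-type cells Hoxd8 lost it without either total marrow array (up to 0.0895), and Hoxd9 without YFP-positive array 1 or 2, wild-type array 1 or 2, or either total marrow array (up to 0.185). None of the high-numbered genes Hoxd10 to Hoxd13, which pattern the digits and the sacral region, was called in either group, nor were Hoxd1, Hoxd3 and Hoxd4. Hoxd3, whose span overlaps that of Hoxd4 in RefSeq, changed by 0.18 ± 0.11 (limma adjusted p = 0.263) and 0.16 ± 0.11 (limma adjusted p = 0.408).

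In the Hoxb cluster Hoxb2, a hindbrain gene, was the only member called, and only in wild-type cells. Its signals were 4.87, 4.77 and 4.65 in the YFP-positive arrays, 5.51, 4.94 and 5.63 in the wild-type arrays, and 4.31 and 4.10 in total marrow. Again the 3 groups did not overlap. The change was 1.15 ± 0.21 in wild-type cells (limma adjusted p = 0.00539, but 0.0535 without total marrow array 2) and 0.56 ± 0.21 in YFP-positive cells (limma adjusted p = 0.0885). Of the genes that were not called in YFP-positive cells, Hoxb7 (0.57 ± 0.20, limma adjusted p = 0.0665), Hoxb3 (0.34 ± 0.12, 0.0667) and Hoxb9 (0.44 ± 0.17, 0.0949) came close to the threshold, like Hoxb2. In wild-type cells Hoxb3 was the closest (0.38 ± 0.12, limma adjusted p = 0.0552); its span overlaps that of Hoxb4 in RefSeq. Over the 21 genes not called in YFP-positive cells the changes ran from 0.01 to 1.12, and over the 19 not called in wild-type cells from −0.14 to 0.64. Of these, 14 in YFP-positive cells and 16 in wild-type cells had means below the median of all values in the sorted group. At an unadjusted p below 0.05, 23 Hox genes were higher in YFP-positive cells and 19 in wild-type cells, beside 17.6% and 14.1% of all rows, and 0 were lower in each, beside 22.8% and 18.6%.

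YFP-positive cells were set against wild-type gated cells to ask whether the marked subset carries another Hox pattern than the whole gate. The donors of the 2 groups also differ in genotype, so reporter status and genotype cannot be told apart here. No Hox gene was called, and 0% of all rows were called in this comparison. At an unadjusted p below 0.05, YFP-positive cells had 3 Hox genes higher and 7 lower, beside 5.8% and 9.12% of all rows. Hoxa11 had the smallest adjusted p, with a difference of −0.86 (95% interval −1.23 to −0.49, limma adjusted p = 0.138) and arrays that did not overlap. Hoxc6 was next, at 0.63 (0.30 to 0.97, limma adjusted p = 0.200), and then Hoxa4, at −0.56 (−0.87 to −0.25, limma adjusted p = 0.205), both also without overlap. For Hoxa9 the difference was −0.44 (−0.83 to −0.05, limma adjusted p = 0.306) and the arrays overlapped. The 95% interval lay wholly within 1 log2 unit either way for 28 of the 37 genes, beside 81.1% of all rows. Among the other 9, it ran from −0.51 to 1.49 for Hoxa2 and from −1.38 to −0.35 for Hoxc4, so these intervals reach past a 2-fold difference.

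**Figure D3:**
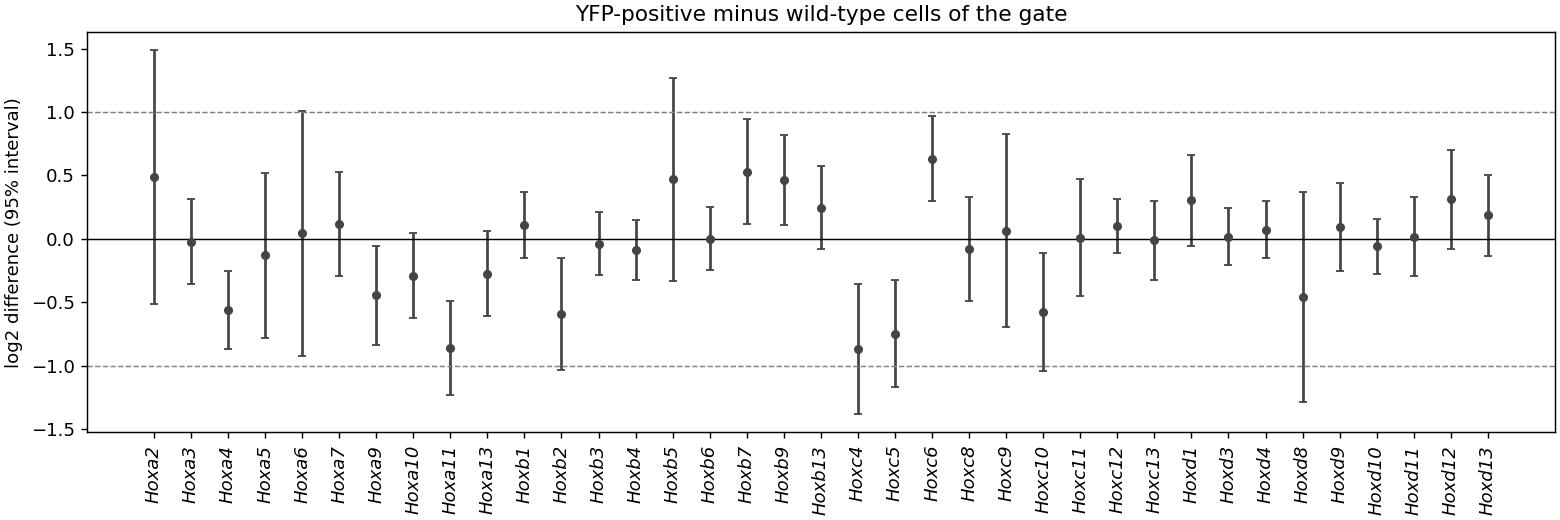
Difference between YFP-positive and wild-type gated cells (vertical axis, log2, YFP-positive minus wild type) for the 37 Hox genes (horizontal axis), with bars for the 95% interval from limma and dashed lines at 1 log2 unit either way. Intervals of 28 genes lie between the dashed lines, and Hoxa11, Hoxc4 and Hoxc5 lie furthest below 0.

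The YFP-negative cells of the gate gave 1 array, and its values were shifted as a whole. Its median was 3.46 as deposited, and over all rows the median difference was −0.91 from the YFP-positive arrays, −0.88 from the wild-type arrays and −0.85 from total marrow. These comparisons therefore used cyclic loess normalization of the 9 arrays, after which its median was 4.57. The fit took the spread of the lone array from the replicated groups. Its marker means after this step were 10.7 for reticular stroma, 4.56 for leucocytes and 4.47 for haematopoietic progenitors.

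After loess, Hoxc6 read 7.42, Hoxa9 7.19, Hoxc9 7.00 and Hoxa10 6.90 in the YFP-negative array, each above both total marrow arrays, which on that scale read 3.34 and 3.38, 4.49 and 4.73, 4.78 and 4.27, and 4.12 and 4.36. The changes against total marrow were 4.07 ± 0.26 for Hoxc6 (limma adjusted p = 2.76e-05), 2.65 ± 0.21 for Hoxa10 (8.59e-05), 2.58 ± 0.24 for Hoxa9 (0.000221) and 2.48 ± 0.47 for Hoxc9 (0.00737). In all, 16 of 37 Hox genes were higher, against 13% of all rows, and 0 were lower, against 13.2%. By cluster these were 5 in Hoxa, 3 in Hoxb, 5 in Hoxc and 3 in Hoxd. With the values as deposited 3 were higher and 13 lower, where 4.05% of all rows were higher and 67.9% lower, and the direction of Hoxa3, Hoxb3, Hoxb9 and Hoxc12 turned. Hoxa9, Hoxa10 and Hoxc6 alone kept the call under every alternative run.

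Against the YFP-positive arrays, Hoxd10, a gene of the lumbar motor neurons, was the only Hox gene called after loess. It read 4.50 in the YFP-negative array, 3.42, 3.36 and 3.24 in the YFP-positive arrays, 3.51, 3.48 and 3.59 in the wild-type arrays, and 3.40 and 3.47 in total marrow. All of these values lay below the median of all values after loess, 4.53, so the size of its difference is uncertain. The YFP-negative array stood alone above 8 arrays that lay close together, by 1.16 ± 0.13 over YFP-positive cells (limma adjusted p = 0.00971). As deposited it read 3.73 and the difference was 0.29 (limma adjusted p = 0.0731). In RefSeq its span overlaps that of Hoxd11, which read 3.68 after loess. Of all rows, 2.62% were higher and 1.36% lower in this comparison. Against wild type, where 3% of all rows were higher and 1.57% lower, Hoxd10 was higher by 0.98 ± 0.13 (limma adjusted p = 0.0164) and Hoxa3 was lower, with a difference of −0.89 ± 0.19 (limma adjusted p = 0.0493). As deposited Hoxd10 differed by 0.23 from wild type and was not called (limma adjusted p = 0.133). Hoxd10 lost the call against wild type without wild-type array 1 (adjusted p = 0.0507). Hoxa3 lost it when any wild-type array, YFP-positive array 2 or either total marrow array was left out (up to 0.113). With the values as deposited, 28 Hox genes were lower than in YFP-positive and 27 lower than in wild-type cells. So were 75.4% and 74.7% of all rows, and the cause of this shift of the whole array was not tested.

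**Figure D4:**
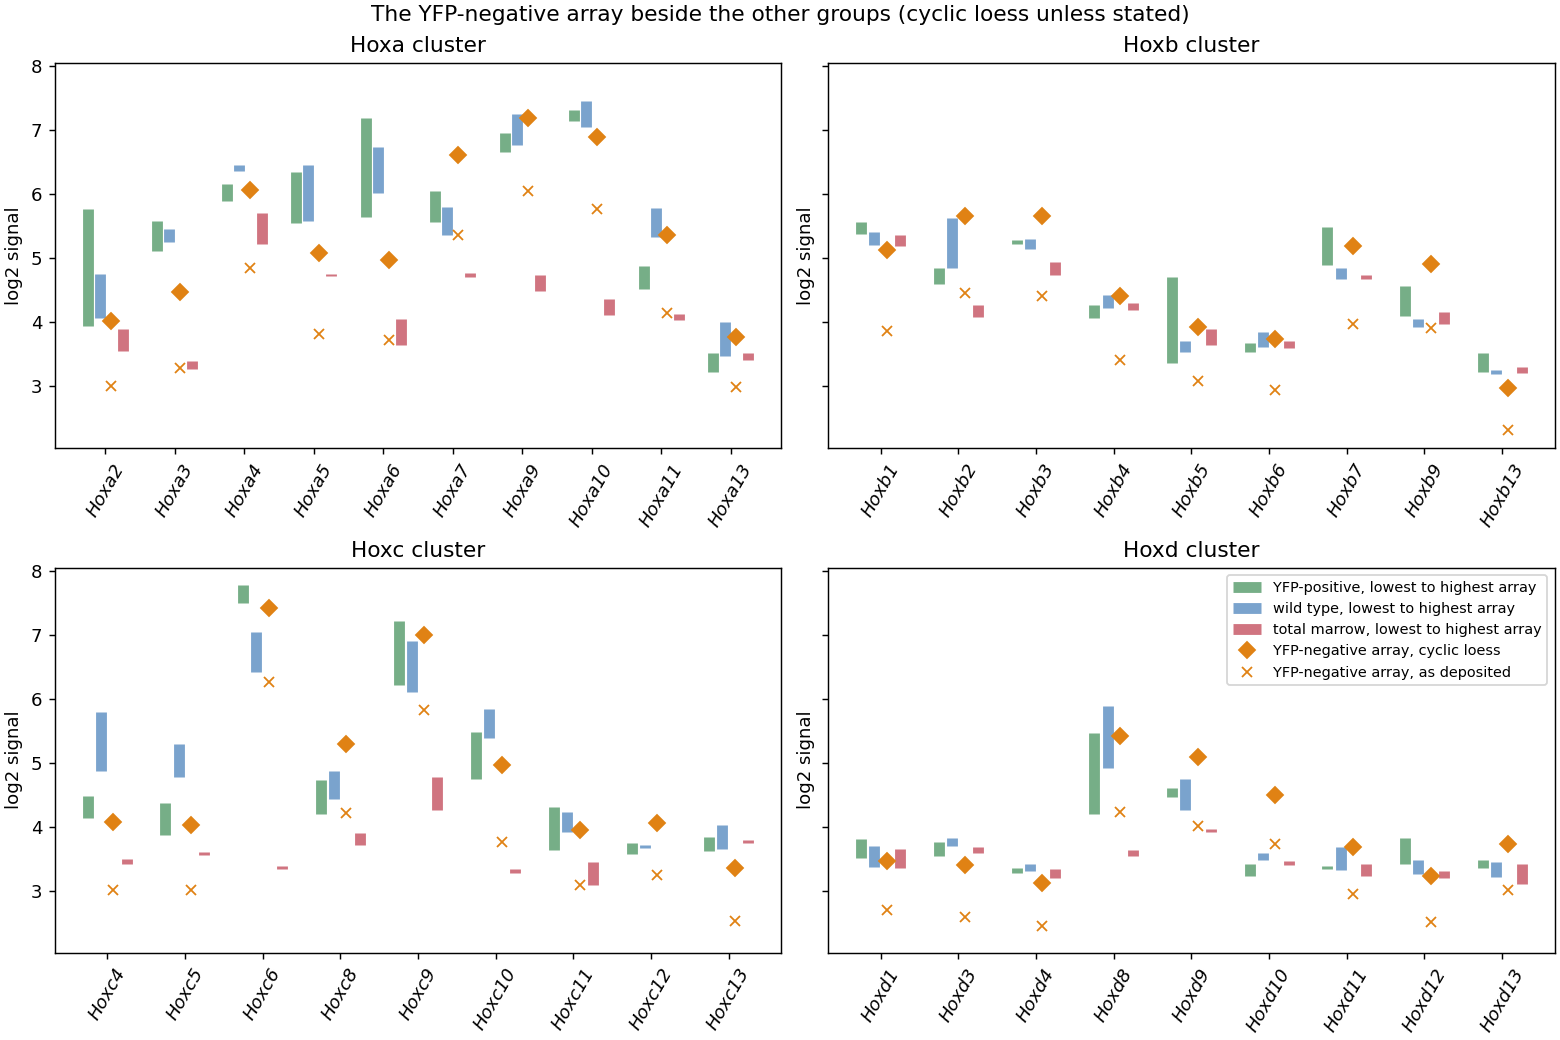
Log2 signal (vertical axis) of the YFP-negative array for the 37 Hox genes (horizontal axis, 1 panel per cluster), after cyclic loess (diamonds) and as deposited (crosses). Coloured bars run from the lowest to the highest array of the YFP-positive, wild-type and total marrow groups after cyclic loess. The diamond of Hoxc6, at 7.42, lies far above total marrow. That of Hoxd10, at 4.50, lies above all other arrays but below the median of all values after loess, 4.53.

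Some partners of the Hox proteins were called as well. Of 8 measured genes of the PBX, MEIS and PREP families, 3 were higher and 1 lower in each sorted group, with a median change of 0.46 in YFP-positive cells and 0.53 in wild-type cells. Of all rows 11% and 10.4% were higher and 18.5% and 13.9% lower. Meis2, a MEIS partner known from the proximal limb, read 6.19, 6.27 and 6.52 in the YFP-positive arrays, 5.48, 6.04 and 5.84 in the wild-type arrays, and 3.43 and 3.07 in total marrow. It was higher by 3.08 ± 0.20 (limma adjusted p = 1.8e-05) and by 2.54 ± 0.20 (limma adjusted p = 5.14e-05). Pknox2 was higher by 2.27 ± 0.26 (limma adjusted p = 0.000407) and by 2.93 ± 0.26 (limma adjusted p = 9.23e-05), and Meis3 by 1.97 ± 0.27 (limma adjusted p = 0.00102) and by 2.44 ± 0.27 (limma adjusted p = 0.000317). For all 3 genes the sorted arrays lay above total marrow, whose mean was below the median of all values, so the size of these changes is also uncertain. Pknox1 was lower, with changes of −0.67 ± 0.16 (limma adjusted p = 0.0152) and −0.66 ± 0.16 (limma adjusted p = 0.0179). It lost the call without either total marrow array, and in wild-type cells also without wild-type array 3 (adjusted p up to 0.109). Meis1, the partner of Hoxa9 in leukaemia, changed by 0.79 ± 0.44 (limma adjusted p = 0.217) and 0.58 ± 0.44 (limma adjusted p = 0.46).

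Among 17 measured neighbours and non-coding genes of the loci, YFP-positive cells had 1 higher and 2 lower, and wild-type cells 1 higher and 1 lower. The shares of all rows were 11% higher and 18.5% lower in the first comparison and 10.4% and 13.9% in the second. Skap2, an adaptor of leucocytes that lies beside the Hoxa cluster, was lower, with changes of −1.64 ± 0.13 (limma adjusted p = 4.62e-05) and −1.78 ± 0.13 (limma adjusted p = 2.72e-05). Lnpk, beside Hoxd, was lower in YFP-positive cells, with a change of −0.94 ± 0.20 (limma adjusted p = 0.00938, and 0.0883 without total marrow array 1). Smug1, a repair enzyme gene near Hoxc, was higher by 0.69 ± 0.16 (limma adjusted p = 0.0133, and 0.12 without total marrow array 1) and 0.55 ± 0.16 (limma adjusted p = 0.0369). In wild-type cells Smug1 lost the call when any wild-type or total marrow array was left out (adjusted p up to 0.271). None of the 6 caudal and ParaHox genes, the relatives that act upstream of or beside Hox genes, was called in either group.

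Among 16 measured Polycomb genes, YFP-positive cells had 3 higher and 4 lower, and wild-type cells 2 higher and 5 lower. As shares these were 18.8% and 25.0% in YFP-positive cells, where 11% of all rows were higher and 18.5% lower, and 12.5% and 31.2% in wild-type cells, where 10.4% were higher and 13.9% lower. Pcgf2, a subunit of Polycomb complex PRC1 whose loss shifts vertebral identity, was higher by 2.76 ± 0.19 (limma adjusted p = 2.2e-05) and by 2.95 ± 0.19 (limma adjusted p = 1.41e-05). Suz12 and Ezh2, core subunits of PRC2, were lower, with changes of −2.31 ± 0.25 (limma adjusted p = 0.000307) and −2.01 ± 0.18 (limma adjusted p = 0.000105) in YFP-positive cells and of −2.20 ± 0.25 and −2.24 ± 0.18 in wild-type cells. Ezh1, which encodes the other catalytic subunit of PRC2, was higher by 0.81 ± 0.12 (limma adjusted p = 0.00147) and by 0.76 ± 0.12 (limma adjusted p = 0.00223). Jarid2, also on this list, was called lower in both groups and kept that call under every alternative. Cbx7, another PRC1 subunit, was higher in YFP-positive cells by 1.43 ± 0.32 (limma adjusted p = 0.0131, up to 0.0983 without either total marrow array), while in wild-type cells the change was 0.22 ± 0.32. Of 11 Trithorax and activating factors, 0 were higher in either group, 4 were lower in YFP-positive cells and 2 in wild-type cells, shares of 36.4% and 18.2% beside the 18.5% and 13.9% of all rows. The H3K27 demethylase gene Kdm6b was lower, with changes of −1.44 ± 0.18 (limma adjusted p = 0.000625) and −0.97 ± 0.18 (limma adjusted p = 0.00542, and 0.0557 without total marrow array 2). Psip1, which encodes a partner of the Trithorax protein MLL, was lower, with changes of −1.07 ± 0.21 (limma adjusted p = 0.00651) and −0.90 ± 0.21 (limma adjusted p = 0.0153). Mllt3 and Wdr5 were called in YFP-positive cells alone, with changes of −1.13 ± 0.26 (limma adjusted p = 0.0138) and −0.91 ± 0.27 (limma adjusted p = 0.04) there and of −0.13 ± 0.26 and −0.75 ± 0.27 in wild-type cells. Of these calls, Psip1 was lost in YFP-positive cells without total marrow array 1 (adjusted p = 0.0617) and in wild-type cells without either total marrow array or wild-type array 3 (up to 0.117). Mllt3 was lost without either total marrow array (up to 0.118), and Wdr5 in each fit with 1 array left out other than that without YFP-positive array 3 (up to 0.215). Both were also lost under quantile normalization and after cyclic loess. Leucocyte and progenitor markers were lower in the same comparisons, as given above, and their part in these changes was not tested.

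Of 30 measured positional genes of the limb and trunk outside the Hox clusters, 14 were higher in each sorted group and 0 lower, while 11% and 10.4% of all rows were higher and 18.5% and 13.9% lower. The other 16 in each group were not called. The median change was 0.59 in YFP-positive cells and 0.50 in wild-type cells. The count was lower in YFP-positive cells without total marrow array 1 and in wild-type cells without either total marrow array. Such fits leave 1 total marrow array, and fewer of all rows were called higher in them too. Prrx1, the homeobox gene of limb bud mesenchyme, read 9.25, 9.09 and 8.67 in the YFP-positive arrays, 8.94, 9.33 and 9.31 in the wild-type arrays, and 3.41 and 3.26 in total marrow. It was higher by 5.67 ± 0.20 (limma adjusted p = 6.78e-07) and by 5.86 ± 0.20 (limma adjusted p = 5.18e-07). Total marrow lay below the median of all values for Prrx1 and for the genes that follow up to Tbx15, so the size of their changes is uncertain too. Dlx5, a homeobox gene of limb and bone, was higher by 5.06 ± 0.26 (limma adjusted p = 4.04e-06) and by 5.59 ± 0.26 (limma adjusted p = 2.17e-06). Irx3, an Iroquois gene of the proximal limb, was higher by 4.40 ± 0.53 (limma adjusted p = 0.000542) and by 4.91 ± 0.53 (limma adjusted p = 0.000294). Tbx15, a T-box gene of the limb and trunk skeleton, was higher by 3.81 ± 0.24 (limma adjusted p = 1.36e-05) and by 3.82 ± 0.24 (limma adjusted p = 1.26e-05). Of 14 cranial neural crest and head genes, 1 was higher in YFP-positive cells and 0 in wild-type cells. It was Dlx2, higher by 0.59 ± 0.11 (limma adjusted p = 0.00624), while in wild-type cells its change was 0.14 ± 0.11.

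**Figure D5:**
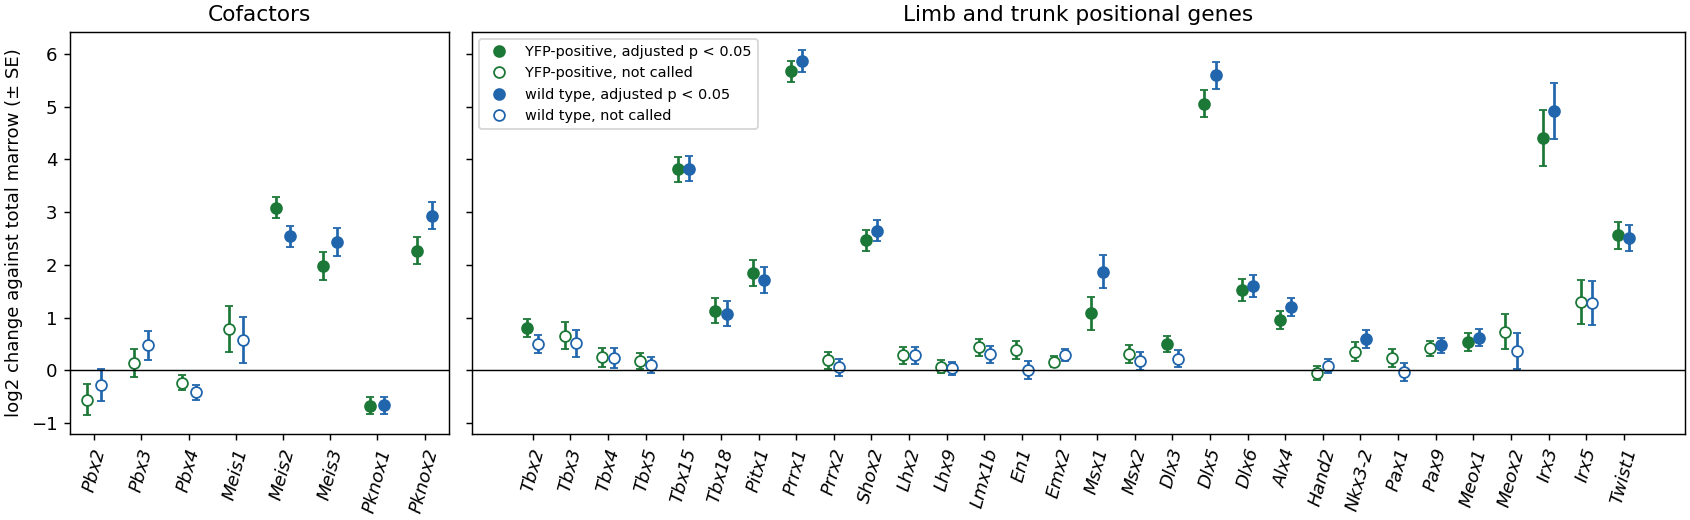
Log2 change against total marrow (vertical axis, ± SE) in YFP-positive and wild-type gated cells for the partners of Hox proteins (left) and for limb and trunk positional genes (right). Filled points have an adjusted p below 0.05. Meis2, Meis3 and Pknox2 stand above 0 and Pknox1 below it, and Prrx1 and Dlx5 lie at 5.67 and 5.06 in YFP-positive cells.

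In the YFP-negative array a few genes of these lists were called against the other gated cells after loess. The lists they came from held 17 measured locus neighbours, 30 limb and trunk genes and 14 head genes. Against either gated group 0 were called of 8 partners, 16 Polycomb genes, 11 Trithorax and activating factors and 6 caudal and ParaHox genes. Of all rows, 2.62% were higher and 1.36% lower against YFP-positive cells, and 3% and 1.57% against wild type. Mtx2, a mitochondrial gene beside the Hoxd cluster, was higher by 1.46 than in YFP-positive and by 1.47 than in wild-type cells. Meox1, a somite gene, was higher by 1.27 and 1.15, and Prrx2, a relative of Prrx1, by 0.88 and 0.95. Of the head genes, Tfap2a was higher by 1.00 and 0.83 and Lhx8 by 0.66 and 0.76, while Dlx2 differed by −0.69 from YFP-positive cells (limma adjusted p = 0.029). The adjusted p of the higher genes lay between 0.0149 (Mtx2) and 0.0421 (Lhx8), both against YFP-positive cells. As deposited, Mtx2 read 6.05 in the YFP-negative array and 5.80 to 5.95 in the YFP-positive arrays. These calls come from 1 array after loess, and no alternative was run for them.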

How the data were processed

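Bone marrow RNA of 9 samples was amplified with NuGEN kits and hybridised to Affymetrix Mouse Gene ST 1.0 arrays, per the labels' protocols. The deposited values are log2 signals, 1 per probe set and array, made by the authors with Affymetrix Expression Console 1.3.1 and RMA, per the submitters' processing notes. Whether all arrays were summarised together is not stated, and no scanner files were used here. The number of arrays limits the precision.

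Probe sets were named from GEO's platform annotation. Of 35556 rows, 21789 had 1 symbol and were tested, 1621 had several and 12146 none. The values were used as deposited in limma 3.58.1 (R 4.3.3), with a mean per group, 5 residual degrees of freedom, empirical Bayes moderation, two-sided tests and Benjamini-Hochberg adjustment over all rows tested. SE are limma's moderated errors. The YFP-negative array was compared after cyclic loess normalization. The fit was also run on simulated data with independent errors. These had neither a shifted array nor a loess step, so the YFP-negative comparisons were not checked in this way. The members and lists were chosen with earlier results of these data known.

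Genes named with every array were those called against total marrow with groups that do not overlap. Of the others, the 4 with the smallest p in either comparison, the 3 smallest against wild type, up to 4 called genes in each direction per YFP-negative comparison and up to 4 called per list were named. Hoxa9 was named in every group. Names added after values were seen are Hoxa13 and Hoxd3 in YFP-positive cells, Hoxc12, Hoxc13, Hoxd11, Meis1, Ezh1, Jarid2, Ptprc, and the genes of other lists in the YFP-negative array. Promoter windows are from RefSeq GRCm38.p6. The authors' genome build is not given in the sources used here. Alternatives were other normalizations, a filter on dim rows, all rows, 1 value per gene, a replicate block, array weights, another variance model, the 2 groups alone and each array left out.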

Additional observations from a re-analysis of the deposited data

Results flagged for a closer look

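The row shared by Hoxb8 and Hoxb7 lies outside the comparisons, because it cannot be given to 1 gene, and its signal in sorted stroma stood above that of total marrow. It read 3.38, 3.29 and 3.77 in the YFP-positive arrays, 3.26, 3.22 and 3.25 in the wild-type arrays, 3.08 and 3.14 in total marrow, and 2.48 as deposited in the YFP-negative array. The mean of the 6 sorted arrays was 0.25 above that of total marrow on the log2 scale. All values lay below the median of all values, 4.43, and the difference was not tested.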

How the results depend on the processing

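No Hox gene called against total marrow turned direction in YFP-positive or wild-type cells. Of 271 values under the alternatives for the 16 genes of YFP-positive cells, 218 kept the call and 53 lost it, and of 305 for the 18 genes of wild-type cells, 276 kept it and 29 lost it. The genes that kept it in all alternatives were Hoxa3, Hoxa6, Hoxa9, Hoxa10, Hoxc6, Hoxc9 and Hoxc10 in YFP-positive cells and Hoxa3, Hoxa4, Hoxa9, Hoxa10, Hoxa11, Hoxc4, Hoxc5, Hoxc6 and Hoxc10 in wild-type cells. With 1 array left out, the count of higher genes ranged from 7 to 16 in YFP-positive and from 9 to 18 in wild-type cells. The filter on dim rows kept 22 of the 37 members. The calls of YFP-negative cells moved most. Against YFP-positive cells, higher genes numbered 3 after quantile normalization, 0 as deposited and 0 with the block, beside 972, 101 and 5 of 21789 rows. After the filter on dim rows higher genes numbered 0, beside 420 of 13040 rows. Lower genes numbered 1 after quantile normalization, 28 as deposited and 1 with array weights, beside 711, 16421 and 387 rows. With 1 YFP-positive array left out, lower genes numbered 0 to 2, beside 296 to 469 rows. Against wild type, higher genes numbered 4 after quantile normalization, 0 as deposited, 3 with array weights and 2 with the other variance model. Beside these stood 1028, 73, 1293 and 610 of 21789 rows. After the filter higher genes numbered 0, beside 440 of 13040 rows, and with 1 value per gene 2, beside 584 of 19938. With 1 YFP-positive or wild-type array left out, higher genes numbered 0 to 3, beside 126 to 1069 rows. Lower genes numbered 27 as deposited, 2 with array weights and 0 with the other variance model, beside 16280, 798 and 236 of 21789 rows. After the filter lower genes numbered 0, beside 271 of 13040 rows, and over all rows 0, beside 286 of 35556. With 1 YFP-positive or wild-type array left out, lower genes numbered 0 to 1, beside 59 to 653 rows. Against total marrow 3 were higher and 13 lower as deposited, where Hoxa3 changed by −0.063, Hoxb3 by −0.54, Hoxb9 by −0.10 and Hoxc12 by −0.29, on values whose median over all rows differed by −0.85. The cause of the moves in these counts was not tested. Of 1052 values for called genes of the other lists, an alternative chosen after seeing the data, 923 kept the call, 129 lost it and 0 turned direction.

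No sign of pairing by replicate number was seen. Deviations of same-numbered YFP-positive and wild-type arrays correlated at −0.06, −0.03 and −0.01, and 0 of the 6 arrays correlated best with the array of its own number in the other group. With so few arrays per group these correlations cannot exclude a pairing. With the replicate number as a block, 12 Hox genes were higher in YFP-positive cells and 16 in wild-type cells against total marrow. Beside these stood 1919 and 2093 of 21789 rows. Between these 2 groups 0 Hox genes and 0 of all rows differed. In YFP-negative cells 0 Hox genes were called against either gated group. Of all rows only 5 were higher against YFP-positive and 6 against wild-type cells, and 0 lower. Against total marrow 13 Hox genes were higher in YFP-negative cells, beside 2328 rows.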
